A study of Mus musculus with 6 samples.

Results

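Transcripts of 10 genes of Notch signalling and secretory cell fate were examined in intestinal tissue of mice with colitis. They were the rows of the deposited count table whose gene identifiers carry the symbols Notch1, Notch2, Dll1, Dll4, Jag1, Rbpj, Hes1, Atoh1, Gfi1 and Spdef, and they make up 10 of 55335 genes in the table. The libraries came from 3 mice labelled Trmt6-/- and 3 wild-type (WT) mice, each library being a separate mouse per the series design. All 6 mice had colitis caused by dextran sulfate sodium (DSS), which damages the gut lining. The product of Trmt6 forms, with a catalytic partner, a methyltransferase that modifies adenosine in tRNA. Neither the stretch of intestine nor the strain, age, sex, DSS dose and DSS time of the mice is given in the labels, and whether Trmt6 was deleted in all cells is not stated. Animals without DSS were not analysed here.

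Notch is a short-range signalling pathway between touching cells. A Delta-like or Jagged ligand on one cell leads to the cutting of a Notch receptor on its neighbour, and the freed receptor fragment enters the nucleus, where it joins the DNA-binding protein RBPJ and switches on genes such as Hes1. In intestinal crypts HES1 represses Atoh1, the gene that commits a progenitor to the secretory lineages, so cells with active Notch become absorptive and cells that escape it become goblet, Paneth, enteroendocrine or tuft cells.

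Libraries summed to between 15213972 and 16972758 counts, and 14107 genes were abundant enough to test. Levels are CPM, read counts normalised to scaled library sizes. Differences are log2 fold changes ± SE of the libraries labelled Trmt6-/- over WT from edgeR's quasi-likelihood test, with Benjamini-Hochberg adjustment over all genes tested and a threshold of 0.05. The 10 genes had 88 to 1224 counts per library, and all 10 were tested. Trmt6 itself had no lower level in any library labelled Trmt6-/- than in WT, at 39.8 CPM in KO72, 34.2 in KO73 and 36.2 in KO75, against 30.9 CPM in WT185, 18.7 in WT186 and 23.1 in WT187 (0.60 ± 0.21, adjusted p = 0.335), so every direction below rests on the labels. Epithelial transcripts were abundant, with the keratin gene Krt8 at 3828 ± 758 CPM in the libraries labelled Trmt6-/-, against 3246 ± 477 CPM in WT (SD, n = 3 each, as for every mean below) and Lgals4 higher and Cldn15 lower in every library labelled Trmt6-/- than in any WT library. Marker genes of the ileum summed to 734 to 1496 CPM in the libraries labelled Trmt6-/-, against 249 to 1248 CPM in WT, and markers of the proximal small intestine to 1576 to 7395 CPM in the libraries labelled Trmt6-/-, against 2799 to 11941 CPM in WT. An index of ileal minus proximal markers (difference of mean log2 CPM) spanned -3.20 to 0.48 across KO72, KO73 and KO75, against -6.52 to -1.76 across the WT libraries. Regional markers thus varied within both groups, and the part of sampling position in the differences below was not tested beyond adding this index to the model. Of the ileal markers Nr1h4, Slc51a and Slc51b were higher without overlap and Fabp6 overlapped, and of the proximal markers Gata4 and Adh6a were lower without overlap and Rbp2 and Fabp1 overlapped. Because tissue was measured in bulk, fewer cells of a type and less RNA per cell cannot be told apart.

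None of the 10 genes passed the threshold between genotypes. Of the 10, 4 separated the groups without overlap: the ligand genes Dll1 and Jag1 and the effector gene Rbpj had lower values, and the ligand gene Dll4 higher values, in the libraries labelled Trmt6-/-. Both receptor genes, the target gene Hes1 and the secretory factor genes Atoh1, Gfi1 and Spdef overlapped between groups. The adjusted p of the 10 ran from 0.158 to 0.895 in edgeR, which called 0.0425% of all genes tested, 0.0354% as higher and 0.00709% as lower. At an unadjusted p below 0.05 the count was 3 lower and 1 higher, where 5.94% of all genes were lower and 6.15% higher. Groups did not overlap for 9.03% of all genes in the lower and 9.7% in the higher direction. DESeq2 called 4.49% of genes (2.66% higher and 1.83% lower), and Jag1 and Rbpj were among the lower. Limma-voom called no gene, and 11.7% of all genes had an unadjusted p below 0.05 in it. The median log2 fold change of the 10 was -0.31, beside -0.033 over all genes tested.

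**Figure D1:**
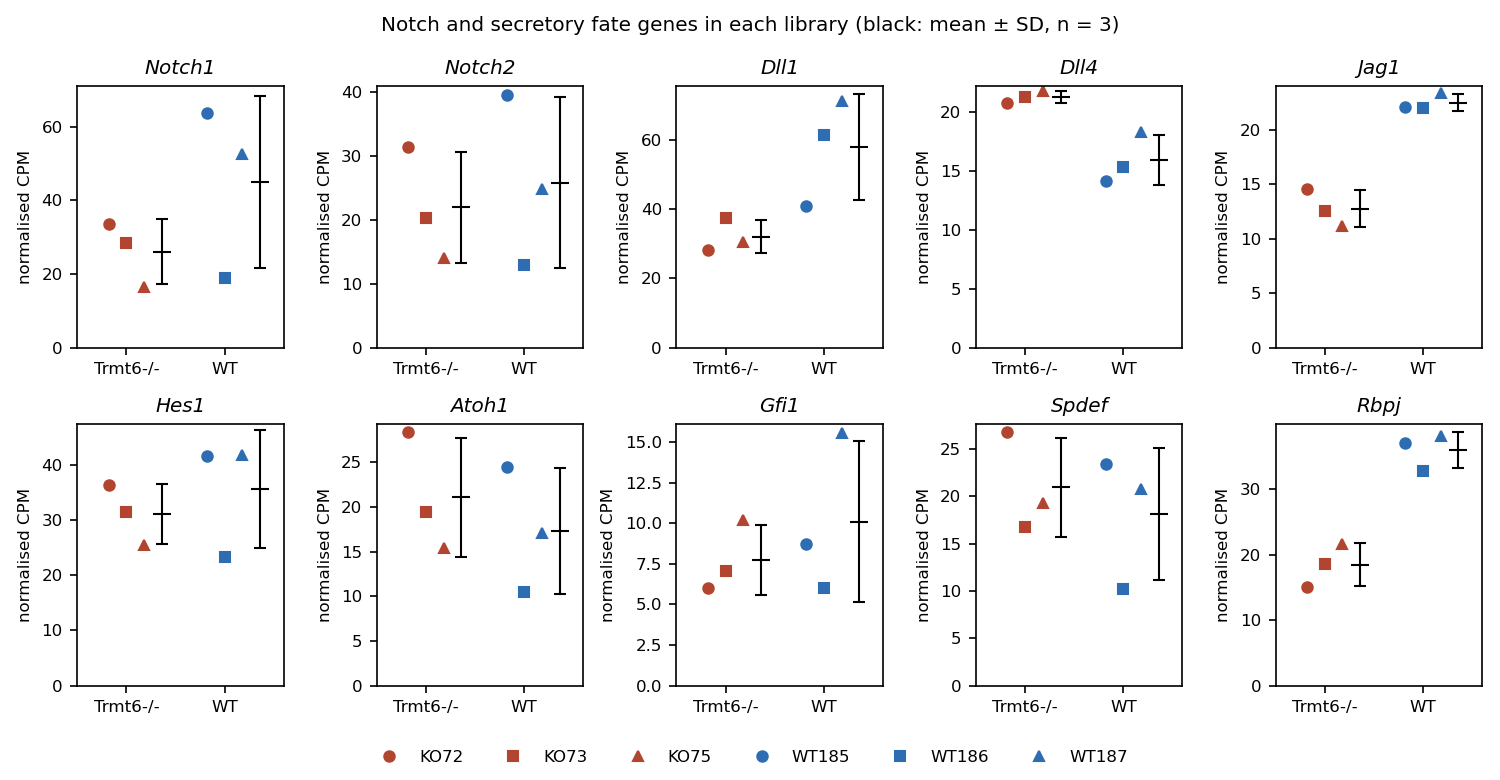
Normalised CPM (vertical axes, from 0) of each of the 10 genes in the 3 libraries labelled Trmt6-/- (left, red) and the 3 WT libraries (right, blue), with mean ± SD in black. Dll1, Jag1 and Rbpj lie lower and Dll4 higher in the libraries labelled Trmt6-/- with no overlap, and the other genes overlap.

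Sequence around gene starts was read for motifs of the pathway's own factors. RefSeq windows of 250 bases upstream of a start (GRCm38.p6) were at hand for 9 of the 10 genes, in 12 windows, and none was found for Hes1. TGGGAA, the core that RBPJ binds, was searched on both strands and occurred in 3 of the windows, belonging to Rbpj and Spdef, beside 21.6% of 32851 windows of all genes. CACGNG, which takes in class C sites that HES repressors bind and the E-box CACGTG, occurred on either strand in 6 of the windows, those of Notch2, Dll1, Dll4, Jag1 and Atoh1, beside 23.5% of all windows. Some genes have several windows, which can overlap, and a match is a string of letters, not a bound site. The windows of Rbpj and Spdef are shown for TGGGAA and that of Atoh1 for its 3 copies of CACGNG, each on its gene's strand with matches, on either strand, in capitals.
Rbpj, chr5:53590096-53590345, plus strand: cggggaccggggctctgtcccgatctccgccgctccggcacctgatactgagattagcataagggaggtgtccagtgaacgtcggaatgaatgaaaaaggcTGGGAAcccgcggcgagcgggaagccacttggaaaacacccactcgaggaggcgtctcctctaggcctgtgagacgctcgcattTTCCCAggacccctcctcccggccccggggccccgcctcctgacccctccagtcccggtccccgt
Spdef, chr17:27728952-27729201, minus strand: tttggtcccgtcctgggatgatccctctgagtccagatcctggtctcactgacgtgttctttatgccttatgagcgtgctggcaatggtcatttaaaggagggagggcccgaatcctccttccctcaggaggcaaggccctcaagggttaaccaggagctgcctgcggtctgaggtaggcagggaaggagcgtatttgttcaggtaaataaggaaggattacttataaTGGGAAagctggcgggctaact
Atoh1, chr6:64728875-64729124, plus strand: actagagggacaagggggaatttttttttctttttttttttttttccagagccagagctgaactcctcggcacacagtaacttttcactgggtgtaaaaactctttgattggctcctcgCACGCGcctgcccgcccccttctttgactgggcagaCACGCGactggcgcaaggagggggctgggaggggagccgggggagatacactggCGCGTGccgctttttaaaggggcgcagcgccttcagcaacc

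Dll1, a Delta-like ligand gene carried by secretory progenitors (ENSMUSG00000014773.13; GRCm38 chromosome 17, 15367354 to 15376872), was measured at 28.3 CPM in KO72, 37.4 in KO73 and 30.6 in KO75, against 41.1 CPM in WT185, 61.5 in WT186 and 71.3 in WT187. All libraries labelled Trmt6-/- lay below all WT libraries, and the WT values were the more spread. Means were 32.1 ± 4.72 CPM in the libraries labelled Trmt6-/-, against 57.99 ± 15.4 CPM in WT, a log2 fold change of -0.85 ± 0.23 (adjusted p = 0.245). With the ileal minus proximal index added to the model it was -0.50 ± 0.27 (adjusted p = 0.325).

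Jag1, a Jagged ligand gene (ENSMUSG00000027276.7; chromosome 2, 137081456 to 137116644), was measured at 14.6 CPM in KO72, 12.5 in KO73 and 11.2 in KO75, against 22.0 CPM in WT185, 22.0 in WT186 and 23.4 in WT187. The WT libraries were nearly equal, and each library labelled Trmt6-/- was lower than all of them. Its log2 fold change was -0.82 ± 0.18 (adjusted p = 0.184 in edgeR; adjusted p = 0.00123 in DESeq2) and stayed between -0.92 and -0.73 when single libraries were left out.

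Dll4, the other Delta-like ligand gene of the crypt (ENSMUSG00000027314.6; chromosome 2, 119325784 to 119335962), differed the other way, at 20.7 CPM in KO72, 21.3 in KO73 and 21.8 in KO75, against 14.2 CPM in WT185, 15.4 in WT186 and 18.3 in WT187. The groups did not overlap, and the 3 libraries labelled Trmt6-/- were close to each other. The difference was small, 0.42 ± 0.17 on the log2 scale (adjusted p = 0.402). Endothelial cells also express Dll4, Jag1 and Notch1, and 4 of 15 endothelial markers were abundant enough to test. The list summed to 5.55 to 14.9 CPM in the libraries labelled Trmt6-/-, against 5.46 to 6.62 CPM in WT, less than Dll4 alone. Vwf was measured at 3.50 CPM in KO72, 3.35 in KO73 and 0.285 in KO75, against 0.990 CPM in WT185, 0.0682 in WT186 and 0.0599 in WT187 (2.59 ± 1.19), Pecam1 had a log2 fold change of 0.69 ± 0.54, and both overlapped between groups. Tie1, not abundant enough to test, was higher without overlap, at 0.677 CPM in KO72, 1.26 in KO73 and 0.640 in KO75, against 0.365 CPM in WT185, 0 in WT186 and 0 in WT187. The defining genes Cdh5 and Kdr each stayed below 1 CPM in every library, and Sox17 had no counts. Of the 4 tested markers 3 had a positive log2 fold change, Vwf, Pecam1 and Egfl7 (0.046 ± 0.49), and Esam a negative one (-0.96 ± 1.10). Among markers not tested, Tie1, Cdh5, Kdr, Eng, Emcn, Flt1, Cldn5 and Plvap had higher means in the libraries labelled Trmt6-/-. Of these, Cdh5, Kdr, Emcn and Cldn5 had counts only in KO73 within that group. Erg and Tek had lower means in the libraries labelled Trmt6-/-, Tek at 0.389 CPM against 1.19 CPM in WT. The part of endothelium in the Dll4 difference was not tested. Of 15 markers of mesenchyme and smooth muscle, 5 were testable. That list summed to 15.8 to 28.5 CPM in the libraries labelled Trmt6-/-, against 21.4 to 32.7 CPM in WT, Foxl1 had no counts, Vim and Pdgfrb overlapped between groups, Col3a1 was lower without overlap and Tagln higher without overlap.

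The balance of the ligands within a library was also computed from levels per kilobase of exon (RPKM), a ratio chosen after the values were seen and not tested. Dll1 over Dll4 was 1.25 in KO72, 1.602 in KO73 and 1.28 in KO75, against 2.65 in WT185, 3.66 in WT186 and 3.56 in WT187. Jag1 over Dll4 was 0.465 in KO72, 0.388 in KO73 and 0.339 in KO75, against 1.03 in WT185, 0.946 in WT186 and 0.845 in WT187. Both ratios separated the groups with a gap wider than either group's range, and Dll1 exceeded Dll4 per length in all 6 libraries. The separation itself was given in advance, because Dll1 and Jag1 were each lower and Dll4 higher without overlap. Ratios of other genes were also computed after the values were seen. Spdef over Atoh1 averaged 0.94 ± 0.19 in the libraries labelled Trmt6-/-, against 0.97 ± 0.13 in WT, and overlapped between groups. Notch1 over Notch2 averaged 0.91 ± 0.13 in the libraries labelled Trmt6-/-, against 1.31 ± 0.26 in WT, without overlap.

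Notch1, a main receptor gene of crypt progenitors (ENSMUSG00000026923.15; chromosome 2, 26457903 to 26516663), was measured at 33.5 CPM in KO72, 28.3 in KO73 and 16.4 in KO75, against 63.8 CPM in WT185, 18.8 in WT186 and 52.5 in WT187. WT186 lay among the libraries labelled Trmt6-/-, and the other WT libraries above them. The log2 fold change of -0.79 ± 0.47 had a 95% interval of -1.90 to 0.32 (adjusted p = 0.582). Notch2, the receptor gene that acts beside it (ENSMUSG00000027878.11; chromosome 3, 98013527 to 98150361), was measured at 31.4 CPM in KO72, 20.3 in KO73 and 14.1 in KO75, against 39.6 CPM in WT185, 12.9 in WT186 and 24.9 in WT187. The values labelled Trmt6-/- lay within the range of the WT libraries (-0.23 ± 0.45, 95% interval -1.30 to 0.84, adjusted p = 0.895). The direction of Notch2 turned without WT185 (0.24) or KO75 (0.0034). With the ileal minus proximal index in the model the differences were larger, -1.68 ± 0.38 for Notch1 (adjusted p = 0.0804) and -1.17 ± 0.24 for Notch2 (adjusted p = 0.0704). The index itself ran higher in the libraries labelled Trmt6-/-, at -3.20 to 0.48, against -6.52 to -1.76 in WT. Index and genotype thus cannot be fully separated in this fit, which called 97 of all genes, against 6 without the index. With the same index the log2 fold change of Jag1 was -0.93 ± 0.22 (adjusted p = 0.0853), that of Dll4 0.52 ± 0.21 (adjusted p = 0.216) and that of Rbpj, described next, -0.87 ± 0.21 (adjusted p = 0.0927). Exons of other genes overlap 9.76% of the exon bases of Notch1, 5.02% of those of Notch2, 5.56% of those of Dll4, 3.17% of those of Gfi1 and none of the other 6 genes. Counting without strand cannot assign reads there.

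Rbpj, whose product is the DNA-binding partner of every Notch receptor (ENSMUSG00000039191.12; chromosome 5, 53466152 to 53657362), was measured at 15.1 CPM in KO72, 18.6 in KO73 and 21.6 in KO75, against 37.0 CPM in WT185, 32.8 in WT186 and 38.1 in WT187. Each library labelled Trmt6-/- lay below each WT library. Means were 18.5 ± 3.29 CPM in the libraries labelled Trmt6-/-, against 36.0 ± 2.79 CPM in WT, a log2 fold change of -0.96 ± 0.18 (adjusted p = 0.158 in edgeR; adjusted p = 0.000994 in DESeq2).

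A search by name for pseudogene copies of the 10 genes found counts for 1, a copy of Rbpj. It is Rbpj-ps3 (ENSMUSG00000079575.3; chromosome 6, 46529354 to 46530794), annotated as a processed pseudogene, that is, an intron-less copy of the message. It was examined after the values were seen. Its 1441 annotated bases align without a gap to the coding part of an Rbpj transcript with 99.72% identity, and differ at 4 positions. These stretches of 31 bases, from the GENCODE M21 transcripts (GRCm38), are shown because they are where a read can be told apart. Capitals mark the bases that differ, positions are counted from 1 at the 5′ end of Rbpj-ps3, and the first base of each substitution is that of Rbpj.
Rbpj, T310C: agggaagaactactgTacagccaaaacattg
Rbpj-ps3, T310C: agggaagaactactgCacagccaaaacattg
Rbpj, C949A and G952A: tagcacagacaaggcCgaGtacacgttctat
Rbpj-ps3, C949A and G952A: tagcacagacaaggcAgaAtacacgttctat
Rbpj, A1088C: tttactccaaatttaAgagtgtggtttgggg
Rbpj-ps3, A1088C: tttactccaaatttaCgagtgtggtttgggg

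Rbpj-ps3 had 118, 76 and 53 counts in KO72, KO73 and KO75, against 1, 2 and 7 counts in WT185, WT186 and WT187. Nearly all of its counts came from the libraries labelled Trmt6-/-, where the Rbpj row had its lower values. From 247 against 10 summed counts, each divided by the summed scaled library sizes of its group, the ratio was 27.1, with a 95% exact (Clopper-Pearson) interval of 14.5 to 57.2 that covers counting error only. The edgeR log2 fold change of 4.66 ± 0.67 did not pass (adjusted p = 0.112).

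The copy held 30.6%, 22.2% and 14.8% of the summed counts of both rows in KO72, KO73 and KO75, against 0.141%, 0.414% and 1.09% in WT185, WT186 and WT187. Added together, both rows gave 21.7 CPM in KO72, 24.0 in KO73 and 25.4 in KO75, against 37.0 CPM in WT185, 33.0 in WT186 and 38.5 in WT187. The sum still separated the groups, but its log2 fold change was -0.61 ± 0.15 (adjusted p = 0.21), against -0.96 for the Rbpj row alone. From which of the loci the reads of either row were transcribed was not tested. A read that lies wholly within the part shared with the copy and spans none of the 4 differing bases has the same sequence at both loci, and the file header gives no option for counting reads that map to several places.

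**Figure D2:**
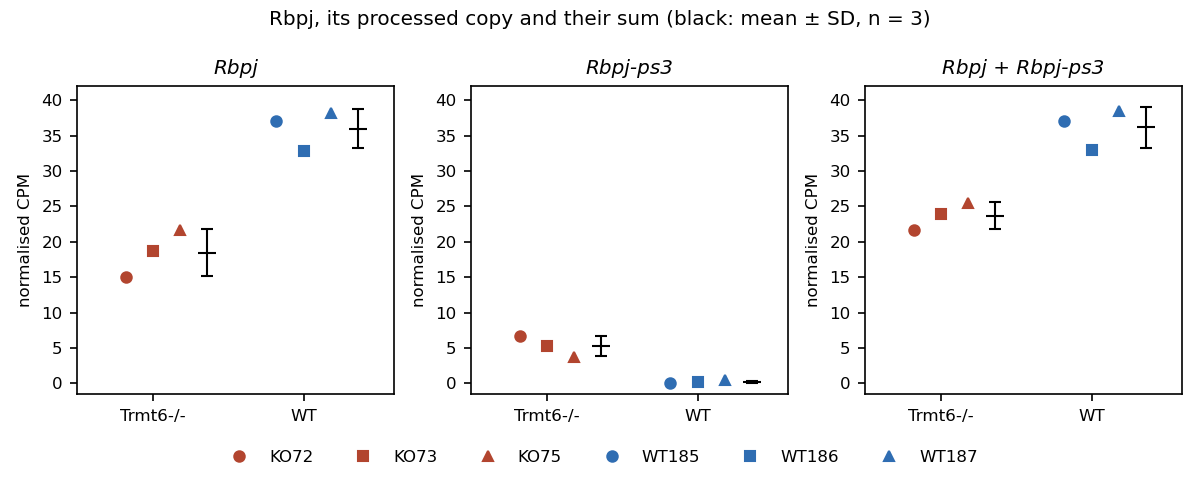
Normalised CPM (vertical axes, same scale) of Rbpj, of its processed copy Rbpj-ps3 and of their sum in the libraries labelled Trmt6-/- (left, red) and WT (right, blue), with mean ± SD in black. Rbpj is lower and Rbpj-ps3 higher in the libraries labelled Trmt6-/-, and the gap between groups in the sum is narrower than for Rbpj alone.

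Rbpj is expressed by many cell types, leukocytes among them. Of 19 leukocyte markers 15 were testable, and the list summed to 439.7 to 1204 CPM in the libraries labelled Trmt6-/-, against 895 to 2473 CPM in WT. The leukocyte gene Ptprc was measured at 23.3 CPM in KO72, 50.8 in KO73 and 157 in KO75, against 47.3 CPM in WT185, 65.0 in WT186 and 164 in WT187. Cd74, an antigen presentation gene, averaged 589.8 ± 209.5 CPM in the libraries labelled Trmt6-/-, against 1434 ± 623 CPM in WT. The B cell gene Ms4a1 averaged 1.35 ± 0.473 CPM in the libraries labelled Trmt6-/-, against 0.575 ± 0.0737 CPM in WT. Rbpj and Ptprc had the same order among the libraries labelled Trmt6-/- and different orders in WT. The part of leukocytes in the Rbpj difference was not tested.

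Hes1, the repressor gene that Notch switches on in crypts (ENSMUSG00000022528.8; chromosome 16, 30064384 to 30067796), was measured at 36.3 CPM in KO72, 31.4 in KO73 and 25.4 in KO75, against 41.6 CPM in WT185, 23.3 in WT186 and 41.9 in WT187. WT186 was the lowest of all 6 libraries and the other WT libraries the highest, so the groups overlapped. The log2 fold change was -0.20 ± 0.26 (adjusted p = 0.833), and its 95% interval of -0.83 to 0.43 holds decreases as well as increases. With the ileal minus proximal index in the model it was -0.63 ± 0.26 (adjusted p = 0.223).

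Atoh1, the gene that starts the secretory programme and whose window with 3 copies of CACGNG is printed above (ENSMUSG00000073043.5; chromosome 6, 64729125 to 64731245), was measured at 28.4 CPM in KO72, 19.4 in KO73 and 15.4 in KO75, against 24.5 CPM in WT185, 10.4 in WT186 and 17.1 in WT187. The groups overlapped (0.28 ± 0.36, 95% interval -0.58 to 1.14, adjusted p = 0.829), and the direction turned with the ileal minus proximal index in the model (-0.44 ± 0.22, adjusted p = 0.306). Per kilobase, Atoh1 over Hes1 was 0.751 in KO72, 0.593 in KO73 and 0.584 in KO75, against 0.566 in WT185, 0.430 in WT186 and 0.392 in WT187, a ratio chosen after the values were seen. The lowest library labelled Trmt6-/- lay just above the highest WT library.

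Spdef, a factor gene of goblet and Paneth cell maturation (ENSMUSG00000024215.14; chromosome 17, 27714352 to 27728955), was measured at 26.8 CPM in KO72, 16.8 in KO73 and 19.3 in KO75, against 23.4 CPM in WT185, 10.2 in WT186 and 20.8 in WT187. The groups overlapped (0.21 ± 0.34, 95% interval -0.61 to 1.02, adjusted p = 0.875), and the direction turned without KO72 (-0.0094) or WT186 (-0.072) and with the ileal minus proximal index (-0.30). Gfi1, a repressor gene that steers secretory progenitors away from the enteroendocrine fate and is also used by blood cells (ENSMUSG00000029275.18; chromosome 5, 107716657 to 107726036), was measured at 5.98 CPM in KO72, 7.05 in KO73 and 10.2 in KO75, against 8.70 CPM in WT185, 6.004 in WT186 and 15.6 in WT187. WT187 was the highest, and KO75, with nearly as much Ptprc as WT187, was the highest of the libraries labelled Trmt6-/-. The part of leukocytes in Gfi1 was not tested. Without WT187 its log2 fold change was 0.054, against -0.39 ± 0.41 with all libraries (95% interval -1.35 to 0.58, adjusted p = 0.785).

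**Figure D3:**
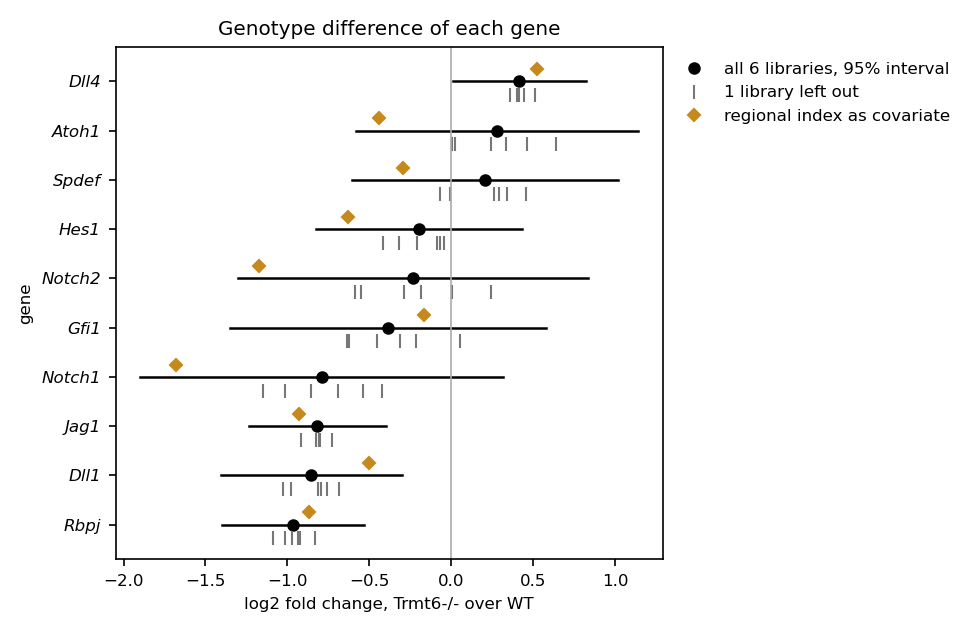
Log2 fold change of each gene, libraries labelled Trmt6-/- over WT (horizontal axis): black points and lines give the estimate and 95% interval, grey ticks the estimates with 1 library left out, and amber diamonds those with the regional index as covariate. The intervals of Dll1, Jag1 and Rbpj lie below 0 and that of Dll4 just above 0, while Atoh1 and Spdef change sign with the covariate.

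Levels of the genes were compared per kilobase of exon. By mean RPKM over the 6 libraries Hes1 was highest at 16.4, followed by Dll1 at 10.7, Atoh1 at 9.06 and Spdef at 8.48. Dll4 came next at 4.83, and Jag1, Gfi1, Notch1, Notch2 and Rbpj lay between 3.02 and 2.13. The range over libraries of each gene overlapped that of the next in this order, for instance 11.5 to 20.6 RPKM for Hes1 and 6.70 to 16.9 for Dll1. Within libraries, Spdef exceeded Dll4 in 6 of 6, and no other gene exceeded its next neighbour in all 6. The ends of the order were separated, with Rbpj, which has long annotated exons, at 1.18 to 2.99 RPKM.

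Within each group the receptor genes and Atoh1 were ordered as the crypt genes were. The sum of 11 stem and proliferation genes of the crypt, among them Smoc2, Prom1, Slc12a2 and Mki67, was 1505 CPM in KO72, 916 in KO73 and 425 in KO75, against 1863 CPM in WT185, 665 in WT186 and 1260.4 in WT187. Notch1, Notch2 and Atoh1 had the same order in both groups, highest in KO72 and WT185 and lowest in KO75 and WT186. That order was shared by 3 of the 10 genes and 14.1% of all genes tested. It was also that of 9 of 11 crypt genes, whose own sum sets the order, so their share is no independent result. Hes1 differed from it only in that WT187 stood as high as WT185. The stem cell gene Olfm4, itself a Notch target, was measured at 484 CPM in KO72, 297 in KO73 and 9.18 in KO75, against 1536 CPM in WT185, 369 in WT186 and 773 in WT187 (-1.76 ± 1.16, adjusted p = 0.623), and KO75 was far below the others. Dll1, Dll4, Jag1 and Rbpj did not follow the crypt genes in both groups. With an index of these crypt genes (mean log2 CPM) as covariate, chosen after the values were seen, Jag1 (-0.76 ± 0.16), Dll1 (-0.91 ± 0.24) and Rbpj (-1.04 ± 0.18) kept their size, whereas Notch1 was at -0.32 ± 0.29 and Atoh1 at 0.61 ± 0.21. None of the 10 passed in that fit, where the adjusted p of Rbpj was 0.0677.

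**Figure D4:**
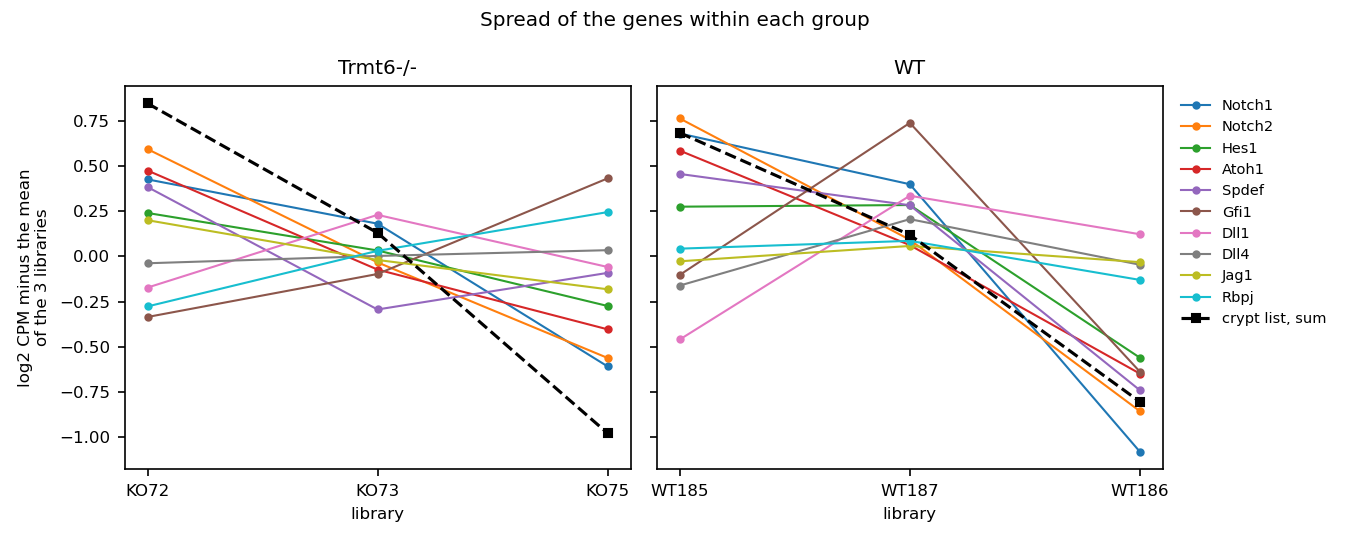
Log2 CPM of each gene minus its mean over the 3 libraries of its group (vertical axis), for the libraries labelled Trmt6-/- (left) and WT (right), with libraries placed by the summed crypt genes (black dashed line). Notch1, Notch2 and Atoh1 follow the crypt genes in both groups, and Dll4, Jag1 and Rbpj stay nearer to 0.

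The rest of the Notch pathway had no call in edgeR. Of 64 further genes 53 were tested, and 0 passed in either direction in edgeR. At an unadjusted p below 0.05, 2 were higher and 1 lower, beside 6.15% of all genes higher and 5.94% lower. Groups did not overlap for 2 of the 53 in the higher and 4 in the lower direction. Over all genes tested, 9.7% did not overlap in the higher and 9.03% in the lower direction. DESeq2 called Ncstn of these, beside 4.49% of all genes, and limma-voom called none. The 53 had a median log2 fold change of -0.029, beside -0.033 over all genes.

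Among genes of receptor proteolysis, Ncstn, which encodes a subunit of the gamma-secretase complex, was measured at 211 CPM in KO72, 234 in KO73 and 224 in KO75, against 155 CPM in WT185, 173 in WT186 and 164 in WT187 (0.44 ± 0.14, adjusted p = 0.29 in edgeR and 0.03 in DESeq2). Adam10, which encodes a protease that cuts the receptor before gamma-secretase does, was measured at 174 CPM in KO72, 187 in KO73 and 190.2 in KO75, against 149 CPM in WT185, 135 in WT186 and 152 in WT187 (0.34 ± 0.14, adjusted p = 0.402). Both were higher in every library labelled Trmt6-/- than in any WT library. On the lower side, Adam17 (-0.17 ± 0.13) and Psen2 (-0.40 ± 0.21), named after their values were seen, did not overlap either.

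Mib2, a ubiquitin ligase gene that acts on Notch ligands, was measured at 32.4 CPM in KO72, 36.6 in KO73 and 39.6 in KO75, against 44.0 CPM in WT185, 69.6 in WT186 and 59.9 in WT187 (-0.68 ± 0.20, adjusted p = 0.269), and the fringe glycosyltransferase gene Rfng was measured at 37.0 ± 1.69 CPM in the libraries labelled Trmt6-/-, against 51.9 ± 15.9 CPM in WT, both without overlap on the lower side. Numb and Itch, whose products restrain Notch, had log2 fold changes of -0.25 ± 0.29 for Numb and 0.029 ± 0.20 for Itch. The 20 nuclear cofactor genes tested had log2 fold changes of -0.60 to 0.31, with a median of -0.0078. The corepressor gene Ncor1 (-0.14 ± 0.23), the coactivator gene Ep300 (-0.033 ± 0.15), Kdm5a (0.13 ± 0.13) and Cir1 (0.31 ± 0.21) all overlapped between groups.

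Of other ligands and receptors, Jag2 and Notch4 were testable and overlapped. Jag2 was measured at 12.0 CPM in KO72, 10.3 in KO73 and 5.27 in KO75, against 7.09 CPM in WT185, 2.25 in WT186 and 6.71 in WT187 (0.78 ± 0.51, adjusted p = 0.622), and the log2 fold change of Notch4 was 0.50 ± 0.50. Of 10 other target genes 5 were testable, and all of these had a negative log2 fold change, with a median of -0.92. Over all 14107 genes tested, 7604 were negative. The 11 crypt genes had the same sign, 11 of 11 having a negative log2 fold change with a median of -0.46 and none passing in edgeR or DESeq2, and their part in the target genes was not tested. Olfm4 and Nrarp had the library order of the crypt genes in both groups. Nrarp, a feedback inhibitor gene induced by Notch, was measured at 8.69 CPM in KO72, 6.64 in KO73 and 4.41 in KO75, against 18.8 CPM in WT185, 6.89 in WT186 and 11.6 in WT187 (-0.92 ± 0.43, adjusted p = 0.473), with KO72 above WT186. Hes2 (-1.19 ± 0.52) and Hes6 (-0.18 ± 0.23) overlapped as well. Hey2 had no counts, and Hes5 and Hey1 stayed below 1 CPM in every library.

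**Figure D5:**
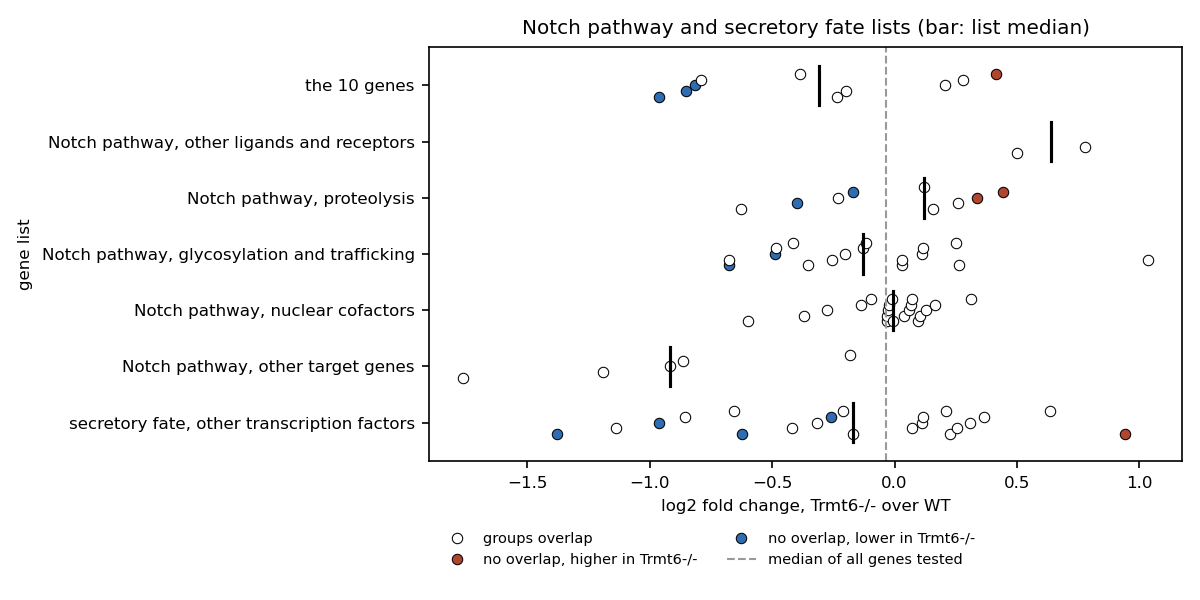
Log2 fold change (horizontal axis) of each tested gene, one point per gene, in the 10 genes and 6 related lists (vertical axis). Filled points mark genes whose groups do not overlap (red higher, blue lower in the libraries labelled Trmt6-/-), black bars are list medians and the dashed line the median of all genes tested, at -0.033.

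Transcription factor genes downstream of the fate choice gave no call in edgeR either, with 0 of 21 past the threshold. At an unadjusted p below 0.05, 1 was higher and 2 lower, beside 6.15% of all genes higher and 5.94% lower. Groups did not overlap for 1 of the 21 in the higher and 4 in the lower direction, beside 9.7% and 9.03% of all genes. DESeq2 called 1, beside 4.49% of all genes, and limma-voom none. Insm1, an enteroendocrine factor gene and the one DESeq2 called, was measured at 5.08 CPM in KO72, 4.54 in KO73 and 4.27 in KO75, against 10.5 CPM in WT185, 7.98 in WT186 and 8.57 in WT187 (-0.96 ± 0.25, adjusted p = 0.229). Nkx2-2, another enteroendocrine factor gene, was measured at 1.24 CPM in KO72, 1.05 in KO73 and 0.783 in KO75, against 3.49 CPM in WT185, 2.52 in WT186 and 2.04 in WT187 (-1.38 ± 0.39, adjusted p = 0.253). Both had lower values in every library labelled Trmt6-/- than in any WT library. Xbp1, a factor gene for secretory capacity, was measured at 259.7 CPM in KO72, 336 in KO73 and 584 in KO75, against 216 CPM in WT185, 205 in WT186 and 193 in WT187 (0.94 ± 0.31, adjusted p = 0.3), higher in every library labelled Trmt6-/-. Elf3, an epithelial factor gene, overlapped (0.070 ± 0.29).

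Products of the secretory cells were read beside the fate genes. Of 12 goblet cell genes all had a positive log2 fold change (median 0.68), of 9 Paneth cell genes all did (median 0.55), and of 15 enteroendocrine genes 13 were negative (median -1.03). Over all 14107 genes tested, 6503 had a positive and 7604 a negative log2 fold change, with a median of -0.033. No gene of these 3 lists passed in edgeR. At an unadjusted p below 0.05, 3 goblet and 1 Paneth cell genes were higher and 10 enteroendocrine genes lower. Over all genes 6.15% were higher and 5.94% lower at that level. DESeq2 called 2 goblet cell genes (Muc2 and Guca2a) and 1 Paneth cell gene (Nupr1) higher, beside 2.66% of all genes. As lower it called 7 enteroendocrine genes (Chga, Chgb, Scg2, Pcsk1, Cck, Tph1 and Rfx6), beside 1.83% of all genes. Limma-voom called none. Guca2a, which encodes the peptide guanylin, was measured at 403 CPM in KO72, 392 in KO73 and 494 in KO75, against 185 CPM in WT185, 35.9 in WT186 and 159 in WT187 (1.76 ± 0.55, adjusted p = 0.283 in edgeR and 0.0338 in DESeq2). Log2 fold changes were 0.70 ± 0.22 for Sytl2, 0.37 ± 0.38 for the mucus protein gene Fcgbp and 0.67 ± 0.34 for Zg16. In the Paneth list they were 1.59 ± 0.50 for Nupr1, 0.98 ± 0.76 for Pla2g2a, 0.64 ± 0.73 for the defensin gene Defa24 and 0.015 ± 0.69 for the lysozyme gene Lyz1. Guca2a, Sytl2 and Nupr1 did not overlap between groups, and the other 5 did. In the whole lists, 4 of 12 goblet and 1 of 9 Paneth cell genes were higher without overlap, beside 9.7% of all genes.

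The hormone gene Cck was measured at 5.70 CPM in KO72, 6.36 in KO73 and 8.75 in KO75, against 28.03 CPM in WT185, 76.3 in WT186 and 20.8 in WT187 (-2.59 ± 0.52, adjusted p = 0.173 in edgeR and 0.000151 in DESeq2). Chgb, a granule protein gene of enteroendocrine cells, averaged 66.7 ± 6.91 CPM in the libraries labelled Trmt6-/-, against 161 ± 40.7 CPM in WT, and its relative Chga 56.9 ± 1.14 CPM in the libraries labelled Trmt6-/-, against 84.1 ± 10.1 CPM in WT. All 3 had lower values in every library labelled Trmt6-/-, beside Insm1 and Nkx2-2, and 10 of the 15 genes separated the groups in this direction, as 9.03% of all genes did. The tuft cell list (8 tested) had a median of -0.14, with Dclk1 at -0.59 ± 0.63, Trpm5 at -0.34 ± 0.48 and Plcg2 at -0.065 ± 0.25. The absorptive list (12 tested) had a median of 0.14, with Lct at -2.07 ± 0.79, Treh at -1.40 ± 0.60, Anpep at 0.37 ± 0.36 and Apob at 0.58 ± 0.51. These are log2 fold changes, and their groups overlapped.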

How the data were processed

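Raw counts per gene, unstranded and by exon, were deposited as featureCounts 2.0.1 wrote them on GENCODE M23, per the file headers. Fastp, HISAT2 and mm10 are named in the submitters' processing notes. RPKM used the exon length per gene (unit: other) that the authors deposited in the same table. Per the labels, libraries were made from amplified cDNA and no molecular identifiers are named, so counting intervals cover counting error only. Column names show the group of a library and a number that matches no replicate label.

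Symbols came from GENCODE M21 (55154 of 55335 identifiers matched). After filterByExpr and TMM scaling, a two-sided quasi-likelihood test was run in edgeR 4.0.16 (R 4.3.3; biological coefficient of variation 0.345) with genotype as the only term. The procedure was also run on simulated data. Settings and outcome of that run are not given here, so no conclusion about detection in these libraries was drawn from it. DESeq2 1.42.0, limma 3.58.1, other scalings and filters, a regional covariate and leaving out each library were alternatives. A crypt covariate and the sum of Rbpj with Rbpj-ps3 were added after the values were seen.

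The 10 genes and all lists were chosen with earlier results of these data known. All 10 genes were named, and from each list genes past the threshold, the 2 with the smallest p and the 2 with the highest CPM. Regional and crypt indices added 0.1 CPM before the logarithm. Others (Rbpj-ps3, Hey1, Hes5, Hey2, Adam17, Psen2, Foxl1, Tie1, Tek, Esam, Egfl7, Tagln, Muc2, Scg2, Pcsk1, Tph1, Rfx6, Cdh5, Kdr and Sox17) were chosen after their values were seen. So were Eng, Emcn, Flt1, Cldn5, Plvap and Erg. An item the rule names is not reported here.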

Additional observations from a re-analysis of the deposited data

How the results depend on the processing

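No setting but DESeq2 called any of the 10 genes. DESeq2 called 2 of them, 1 other Notch pathway gene and 1 other secretory fate factor. Over all genes, against 6 calls, there were 0 with library totals, 159 without the low-count filter, 97 with the regional index, 32 with the crypt index, 633 in DESeq2 and 0 in limma-voom. Leaving out each library gave 0 to 6, with 6 without KO72, 2 without WT185 and 0 without any other. Directions turned for Atoh1 (-0.44) and Spdef (-0.30) with the regional index, and for Notch2 (0.21) and Hes1 (0.010) with the crypt index. The cause was not tested. With single libraries left out, log2 fold changes ran from -0.59 to 0.24 for Notch2, -0.63 to 0.054 for Gfi1 and -0.072 to 0.46 for Spdef, and kept their sign for the other 7 genes, from -1.09 to -0.83 for Rbpj, -0.92 to -0.73 for Jag1, -1.03 to -0.69 for Dll1 and 0.36 to 0.51 for Dll4. Notch1 ran from -1.15 to -0.42 (nearest 0 without WT185) and Hes1 from -0.42 to -0.046 (nearest 0 without WT185, farthest without WT186). Atoh1 ran from 0.0042 to 0.64, with 0.0042 without KO72, 0.024 without WT186, 0.46 without KO75 and 0.64 without WT185. No paired analysis was possible because the columns carry no replicate numbers. With 3 libraries a group, moderate differences may go undetected in genes that vary as much within groups as Notch1, Notch2 and Atoh1.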
